A study of Mus musculus with 5 samples.

Results

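Collagen chain genes encode the polypeptides that wind into collagen triple helices. They were followed here across 5 arrays of mouse embryonic fibroblasts (MEFs), connective tissue cells that secrete much of their own matrix. Members are all genes whose symbol has the form Col, a collagen type number, a and a chain number, and that have a probe set listed with that symbol alone. There were 44 of them among 22180 genes with such a probe set. Where a gene had several probe sets, the one with the highest mean over the arrays was taken.

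All cells were labelled primary MEFs that lack STING (STING-/-) and re-express its R284S variant, and no array of cells without the variant was analysed here. Each group is 1 array: vehicle, Compound C, doxorubicin, GSK 690693 or tofacitinib, with a treatment of 9 hours before RNA extraction. The submitters name the treatments as AMPK inhibitors. As background, Compound C and GSK 690693 both inhibit AMPK among other kinases, GSK 690693 being an AKT inhibitor, tofacitinib blocks JAK kinases, and doxorubicin is a DNA-damaging anthracycline. The sources used here do not give the doses, the construct and promoter behind the variant, or whether the cells are 1 clone. With 1 array per group no difference has a replicate check, no test was possible, and every value below is a log2 signal or a difference of log2 signals between single arrays.

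A collagen chain carries a long stretch in which glycine recurs at a regular spacing, and chains of this kind wind around one another in groups of 3. Fibrillar collagens form the cables of connective tissue, fibril-associated collagens decorate them, and type IV collagen forms the mesh of basement membranes. Fibroblasts are the main source of type I, III and V collagen, and chains are hydroxylated, folded and trimmed by dedicated enzymes before they assemble and are crosslinked.

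The arrays carried the markers of fibroblasts. All 11 fibroblast markers examined, among them Vim, Thy1, Pdgfra and Dcn, passed the signal filter, which asks that a gene reach the median of single-symbol probe sets on at least 1 array. All 6 smooth muscle markers did too, with Acta2 at a log2 signal between 12.65 and 12.86. Of other cell types, 4 of 6 epithelial, 3 of 7 macrophage, 2 of 7 endothelial, 1 of 7 chondrocyte and 0 of 5 osteoblast markers passed, and Epcam, Ptprc, Pecam1 and Acan were below the filter. Krt18 (5.57) and Cdh5 (5.40) passed only through the doxorubicin array, and Csf1r (5.52) only through the GSK 690693 array. The sums below cover each marker, past the filter or not. Summed over the list, fibroblast markers ran from 104.08 with vehicle to 108.09 with doxorubicin. The epithelial sum lay between 30.75 and 31.29 over the arrays, the endothelial between 32.07 and 33.56, the macrophage between 33.29 and 35.39, the chondrocyte between 32.89 and 35.54, the osteoblast between 22.77 and 23.44 and the smooth muscle between 53.71 and 56.31. Doxorubicin gave the highest fibroblast, macrophage, epithelial and endothelial sums. Within the fibroblast list Lum (6.30 under vehicle, 8.10 under doxorubicin) and Fap (4.91 and 6.50) differed most, Pdgfra, Pdgfrb, Prrx1 and Twist1 read lower with doxorubicin, and the list median was 9.87 with vehicle and 9.72 with doxorubicin. Fap passed the filter only through the Compound C and doxorubicin arrays. The part of these sums in the collagen values was not tested. In bulk samples, fewer cells of a type and less RNA per cell cannot be told apart.

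Of the 44 collagen chain genes, 30 passed the filter and 14 did not. The 14 dim genes, Col4a3, Col4a4, Col4a6, Col6a4, Col6a5, Col8a2, Col9a1, Col14a1, Col15a1, Col17a1, Col19a1, Col20a1, Col22a1 and Col28a1, read between 4.28 and 5.38 and differed from vehicle by −0.50 to 0.30. Col8a2 lay just outside the filter, at 5.38 with vehicle where the array median was 5.44. Of the 30, 27 reached the median on all 5 arrays. Col24a1 did so on 4 arrays, Col9a3 on 3, and Col6a6 only on the Compound C array, at 5.46 against a median of 5.38. No detection call was available for the dim genes, so their values are not evidence of expression or of its absence. Counts below cover the 30 genes that passed and are described against the 12317 genes that passed in the whole table.

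Differences were small in this family. At a threshold of 1.5-fold, which is 0.585 on the log2 scale, 7 of the 30 genes differed from vehicle with any compound, all 7 with doxorubicin. They were Col10a1, Col4a5, Col4a1, Col6a2, Col18a1 and Col8a1, which read higher, and Col1a1, which read lower. None of the 30 reached 2-fold from vehicle with any of the 4 compounds. Of all genes that passed, 1.33% were at least 2-fold higher and 6.45% lower with doxorubicin, and 1.3% and 2.5% with Compound C. The shares were 0.187% and 0.601% with GSK 690693, and 0.049% and 0.414% with tofacitinib. Against shares this low, 0 of 30 says little about the family. The other 23 genes differed from vehicle by between −0.56 and 0.55 over all compounds. The standard deviation of the differences over the 30 genes was 0.371 with doxorubicin, against 0.212 with Compound C, 0.231 with GSK 690693 and 0.241 with tofacitinib. Over all genes that passed it was larger each time, at 0.584, 0.455, 0.306 and 0.295 in the same order.

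**Figure D1:**
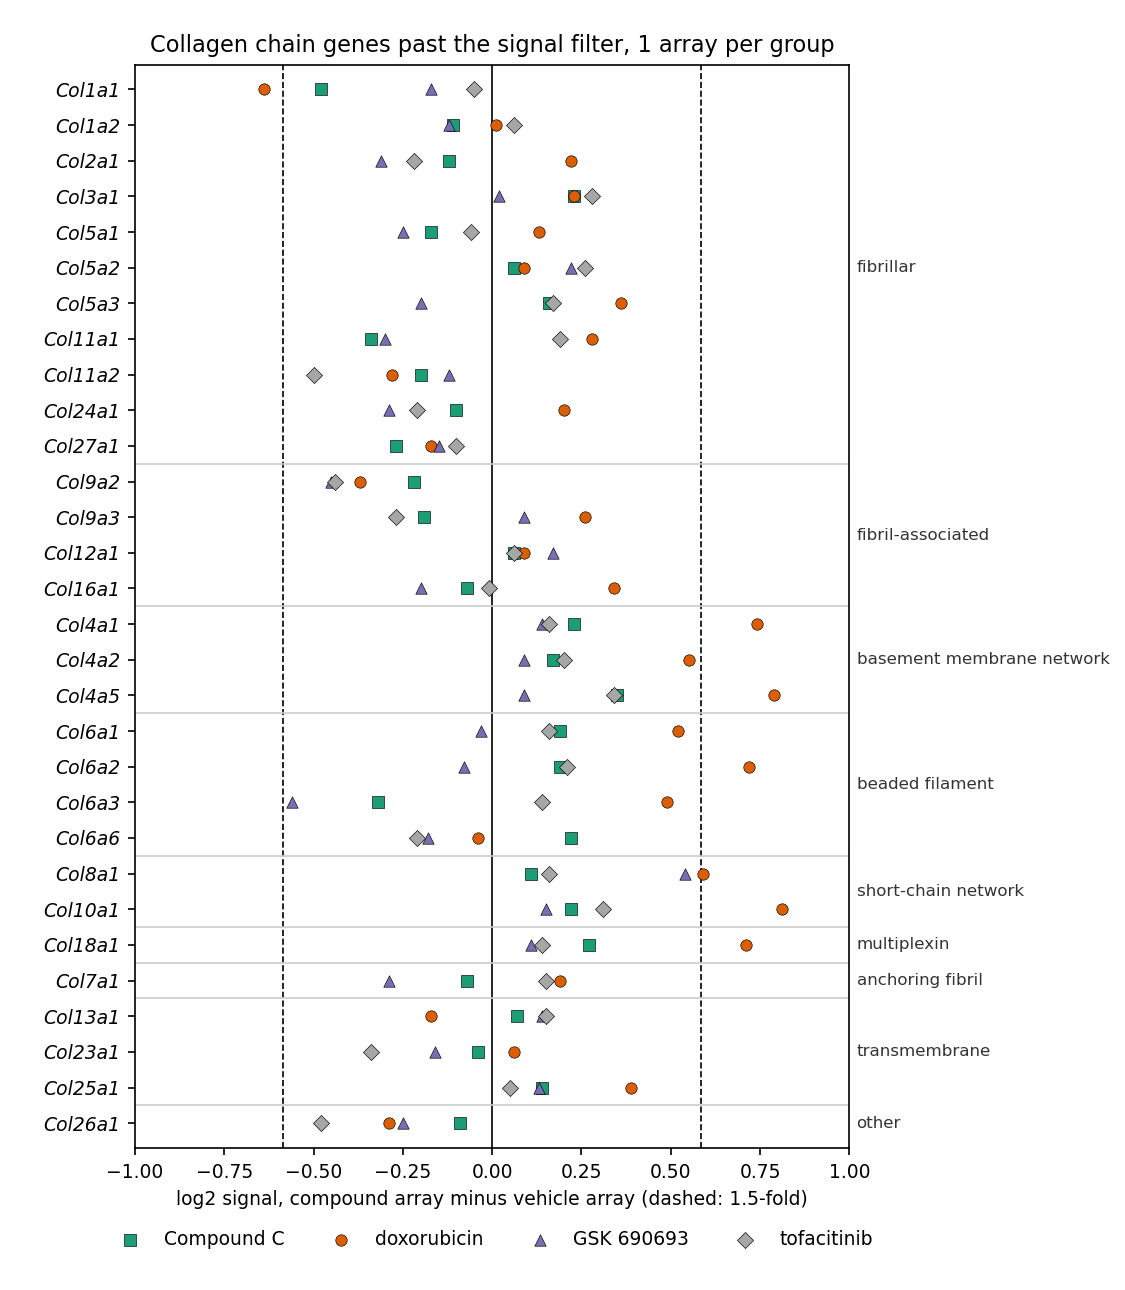
Difference in log2 signal between each compound array and the vehicle array for the 30 collagen chain genes that passed the filter, grouped by the kind of collagen, with 1 array per group and no error bars. Dashed lines mark 1.5-fold, and the only points beyond them are doxorubicin values, 6 to the right and Col1a1 at −0.64 to the left.

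With doxorubicin, 2 of 3 basement membrane genes that passed the filter, 2 of 2 short-chain network genes, 1 of 4 beaded-filament genes and the 1 multiplexin gene were at least 1.5-fold higher, and 1 of 11 fibrillar genes, Col1a1, was lower. Of 30 genes, 6 were at least 1.5-fold higher, or 20%, beside 11.5% of all genes that passed. At least 1.5-fold lower was 1 gene, or 3.3%, beside 14.2% of all genes. The median difference was 0.225 over the 30 and 0.05 over all genes, and 76.7% of the 30 lay above vehicle against 54% of all genes. With the median of the other 4 arrays in place of vehicle, the count was 5 higher and 0 lower, beside 7.48% and 14.8% of all genes under that reference, with Col6a3 at 0.65 above the threshold and Col4a5 at 0.575 and Col8a1 at 0.455 below it.

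**Figure D2:**
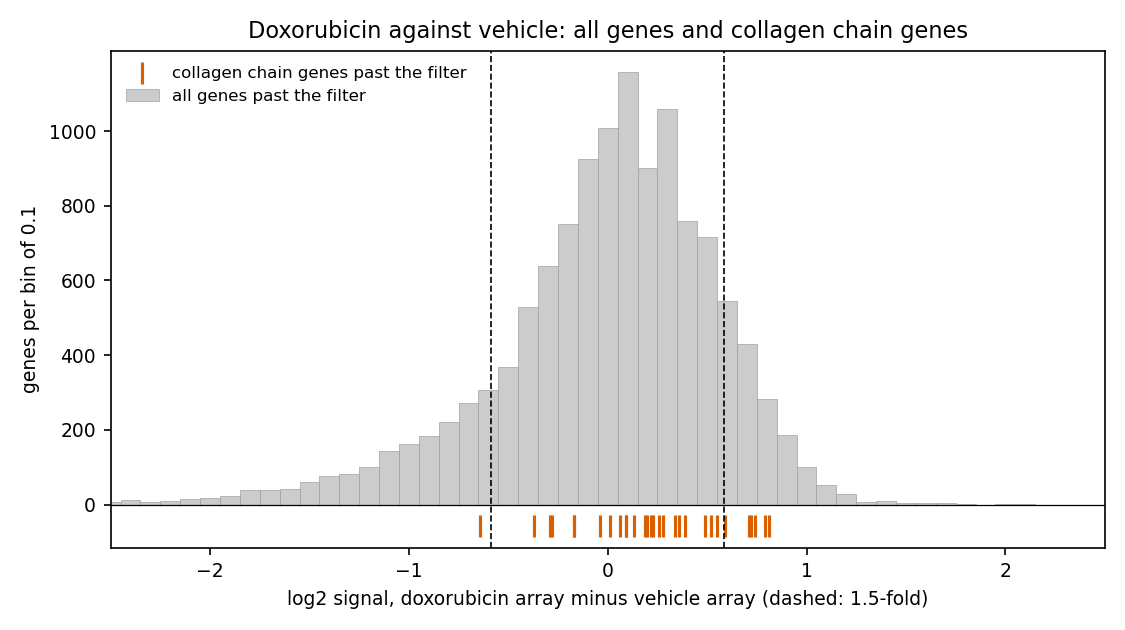
Number of genes per bin of 0.1 in the log2 difference between the doxorubicin and vehicle arrays (grey bars, 12317 genes, x axis drawn from −2.5 to 2.5), with each of the 30 collagen chain genes as an orange tick below the axis. The collagen ticks run from −0.64 to 0.81, whereas the grey distribution has a long tail to the left.

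All 3 basement membrane genes that passed the filter read highest with doxorubicin, as did 35.7% of all genes that passed. Type IV collagen genes encode the sheet-forming chains laid down under epithelia and around vessels and muscle. Col4a1 read 8.19 under vehicle, 8.42 under Compound C, 8.93 under doxorubicin, 8.33 under GSK 690693 and 8.35 under tofacitinib. The doxorubicin array was high and the other 4 lay within 0.23 of one another, so that doxorubicin was 1.67-fold above vehicle, a difference of 0.74 that 5.86% of all genes equalled or exceeded. Its partner Col4a2 read 8.38, 8.55, 8.93, 8.47 and 8.58 in the same order, a difference of 0.55 with doxorubicin that stayed short of the threshold. Col4a5, a chain of the kidney and lung network, read 6.37, 6.72, 7.16, 6.46 and 6.71. Doxorubicin was again highest and vehicle lowest, 1.73-fold apart (0.79, equalled or exceeded by 4.53% of all genes). The vehicle array gave the lowest value for each of these 3 genes, as for 18.2% of all genes. Compound C stood 0.23, 0.17 and 0.35 above it for Col4a1, Col4a2 and Col4a5. The genes of the remaining type IV chains, Col4a3, Col4a4 and Col4a6, were below the filter and within 0.36 of vehicle with every compound.

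Col4a1 and Col4a2 lie next to each other and are read in opposite directions. By their RefSeq starts in GRCm38.p6 the 2 transcripts overlap by 22 bases. Col4a5 and Col4a6 are also read in opposite directions, on chromosome X with 1342 bases between their starts. Col4a5 ranged from 6.37 to 7.16 on the 5 arrays. Col4a6 read between 5.20 and 5.31, below the filter, so its values are not evidence of expression or of its absence. A part of these arrangements in the signals was not tested.

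Type VI collagen, which forms beaded filaments around cells, is built from the products of Col6a1, Col6a2 and Col6a3. Col6a2 read 7.57 under vehicle, 7.76 under Compound C, 8.29 under doxorubicin, 7.49 under GSK 690693 and 7.78 under tofacitinib. Doxorubicin was 0.51 above the next highest array and 1.65-fold above vehicle (0.72, equalled or exceeded by 6.58% of all genes). Col6a1, its neighbour in the genome, read 9.05, 9.24, 9.57, 9.02 and 9.21, a difference of 0.52 with doxorubicin. A second, dimmer probe set of Col6a1, at 5.32 under vehicle, lay at 0.43 with doxorubicin. That probe set lay at −0.25 with tofacitinib, its lowest array, where the brighter one lay at 0.16, so the 2 disagree there. Col6a3 varied more, at 7.35 under vehicle, 7.03 under Compound C, 7.84 under doxorubicin, 6.79 under GSK 690693 and 7.49 under tofacitinib. With the brighter Col6a1 probe set, all 3 genes were highest with doxorubicin and lowest with GSK 690693. Of all genes that passed, 35.7% were highest with doxorubicin and 14.7% lowest with GSK 690693. The GSK 690693 array lay −0.56 from vehicle for Col6a3 but −0.03 and −0.08 for Col6a1 and Col6a2. With Compound C, Col6a3 lay below vehicle (−0.32) and its partners above it (0.19 each). Compared with Col6a1 on that probe set, the difference of Col6a3 from vehicle was lower by 0.53 with GSK 690693 and by 0.51 with Compound C. It was within 0.03 of that of Col6a1 with doxorubicin and tofacitinib. Col6a6, another type VI chain, differed from vehicle by −0.21 to 0.22.

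The short-chain collagens Col8a1 and Col10a1 form hexagonal networks, type VIII under endothelia and type X in the growth plate. Col10a1, best known as a gene of hypertrophic cartilage, read 7.21 under vehicle, 7.43 under Compound C, 8.02 under doxorubicin, 7.36 under GSK 690693 and 7.52 under tofacitinib. The doxorubicin value was 1.75-fold above vehicle and lay 0.50 above any other array (difference 0.81, equalled or exceeded by 4.05% of all genes). Among the chondrocyte markers, Acan, Comp, Cnmd, Hapln1, Matn1 and Matn3 were below the filter, and Sox9 read 8.47 with vehicle and 7.49 with doxorubicin. Col8a1 read 9.06, 9.17, 9.65, 9.60 and 9.22 in the order vehicle, Compound C, doxorubicin, GSK 690693, tofacitinib. The doxorubicin and GSK 690693 arrays were both high, 0.59 and 0.54 above vehicle, the latter equalled or exceeded by 3.42% of all genes in that comparison. Its doxorubicin value passed the threshold by less than the precision of 0.01 to which signals were deposited.

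Col18a1, whose product is a basement membrane collagen of the multiplexin kind and the precursor of endostatin, read 6.12 under vehicle, 6.39 under Compound C, 6.83 under doxorubicin, 6.23 under GSK 690693 and 6.26 under tofacitinib. Doxorubicin was 1.64-fold above vehicle (0.71) and 0.44 above the next array, and 6.85% of all genes differed at least as far upward. The other multiplexin gene, Col15a1, was below the filter.

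**Figure D3:**
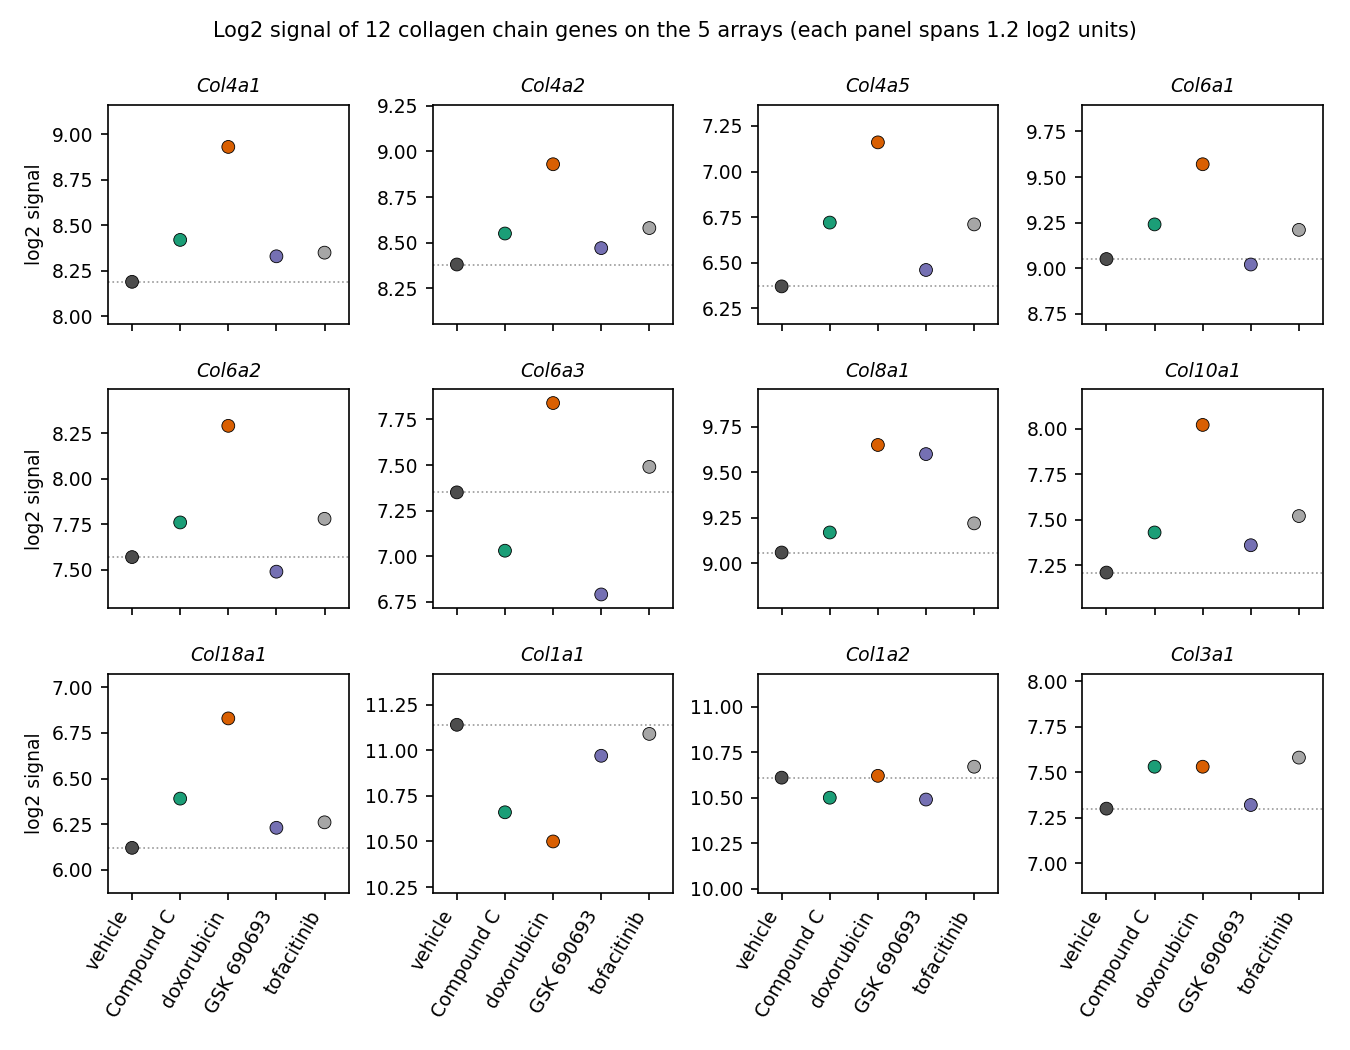
Log2 signal on the 5 arrays for the collagen chain genes named with doxorubicin, their partner chains and Col3a1, with 1 point per array, a dotted line at the vehicle value and the same span of log2 units in every panel. Col4a1, Col4a5, Col6a2, Col10a1 and Col18a1 are highest with doxorubicin, Col8a1 is high with both doxorubicin and GSK 690693, and Col1a1 is lowest with doxorubicin.

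All 11 fibrillar genes passed the filter. With doxorubicin 0 of them were at least 1.5-fold higher and 1 was lower, beside 11.5% and 14.2% of all genes. Their median difference was 0.13, and 8 of the 11 lay above vehicle, beside 54% of all genes. Of the 11, 5 were highest with doxorubicin, beside 35.7% of all genes: Col2a1, Col5a1, Col5a3, Col11a1 and Col24a1. The difference between kinds of collagen was not tested. Col1a1, the gene of the more abundant chain of type I collagen, read 11.14 under vehicle, 10.66 under Compound C, 10.50 under doxorubicin, 10.97 under GSK 690693 and 11.09 under tofacitinib. Doxorubicin and Compound C were the low arrays, 1.56-fold (−0.64) and 1.40-fold (−0.48) below vehicle, and 13% and 14.2% of all genes lay at least as far below vehicle on those arrays. Its difference from the median of the other 4 arrays was −0.53 with doxorubicin, short of the threshold, as it also was after centring on the median of the genes that passed. Col1a2, the gene of the other type I chain, read 10.61, 10.50, 10.62, 10.49 and 10.67 in the same order, a range of 0.18 over all arrays. The difference of Col1a1 from vehicle thus lay 0.65 below that of Col1a2 with doxorubicin and 0.37 below it with Compound C, against 0.05 with GSK 690693 and 0.11 with tofacitinib. A second probe set of Col1a2, at 6.75 under vehicle, lay below vehicle with all 4 compounds, by 0.13 with GSK 690693 up to 0.38 with Compound C and by 0.21 with doxorubicin, so the probe sets of this gene disagree and the gap to Col1a1 with doxorubicin and with Compound C is smaller on the second.

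Col3a1, the fibrillar collagen of pliable tissue, read 7.30 under vehicle, 7.53 under Compound C, 7.53 under doxorubicin, 7.32 under GSK 690693 and 7.58 under tofacitinib. Its neighbour in the genome, Col5a2, read 9.82, 9.88, 9.91, 10.04 and 10.08. Both were highest with tofacitinib and lowest with vehicle, by margins of 0.28 and 0.26. Col5a1, which pairs with Col5a2 in type V collagen and helps set fibril diameter, read 8.72, 8.55, 8.85, 8.47 and 8.66. With GSK 690693 it lay at −0.25, while Col5a2 lay at 0.22. A second, dimmer probe set of Col5a1, at 5.96 under vehicle, lay at −0.13 with GSK 690693. With tofacitinib it lay at −0.43, where the brighter one lay at −0.06. Col5a3, Col11a1, Col2a1 and Col24a1 differed from vehicle by 0.36, 0.28, 0.22 and 0.20 with doxorubicin and by −0.20, −0.30, −0.31 and −0.29 with GSK 690693. Col11a2 and Col27a1 lay below vehicle with all 4 compounds, Col11a2 furthest with tofacitinib (−0.50) and Col27a1 with Compound C (−0.27).

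Of the fibril-associated genes, 4 of 9 passed the filter and none reached the threshold. Col12a1, whose product bridges fibrils in tendon and fascia, read between 10.44 and 10.61 on the 5 arrays. Col16a1 was highest with doxorubicin, at 7.16 against 6.82 with vehicle. Col9a2, a chain of cartilage type IX collagen, read 7.31 under vehicle, 7.09 under Compound C, 6.94 under doxorubicin, 6.86 under GSK 690693 and 6.87 under tofacitinib. It was lower than vehicle with every compound, by 0.22 to 0.45. Col9a3 differed by −0.27 to 0.26. The anchoring fibril gene Col7a1 differed by −0.29 to 0.19. Of the membrane-spanning collagens, Col25a1 differed most, by 0.39 with doxorubicin, whereas Col13a1 differed by −0.17 to 0.15 and Col23a1 by −0.34 to 0.06. Col26a1 was below vehicle with each compound, most with tofacitinib (−0.48).

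The arrays were also ranked within each gene, without a threshold. Doxorubicin was the highest array for 19 of the 30 genes, or 63.3%, beside 35.7% of all genes that passed. Vehicle was highest for 5, or 16.7% (11.9% of all genes), tofacitinib for 4, or 13.3% (17.6%), and Compound C and GSK 690693 for 1 each, or 3.3% (18.4% and 14%). The 1 gene with Compound C was Col6a6, which passed the filter only through that array, so its place there followed from the filter. GSK 690693 was the lowest array for 11 genes, or 36.7%, beside 14.7% of all genes, and vehicle for 10, or 33.3%, beside 18.2%. Tofacitinib was lowest for 5, or 16.7% (10.9%). Compound C and doxorubicin were lowest for 2 genes each, or 6.7%, where the background was 28.7% and 25.3%. Several of these genes are neighbours in the genome or encode chains of 1 helix, so the 30 are not independent of one another.

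With Compound C, 0 of the 30 genes were at least 1.5-fold higher and 0 lower, beside 6.06% and 9.99% of all genes. The median difference was 0.01, against −0.02 over all genes, with 15 genes above vehicle and 15 below. The extremes were Col4a5 (0.35) and Col1a1 (−0.48). After centring each array on its median the background split was 7.67% higher and 8.33% lower, and the collagen counts were still 0.

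With GSK 690693, 0 of 30 were higher and 0 lower at 1.5-fold, beside 2.4% and 3.21% of all genes. The median was −0.12, against 0.04 over all genes, and 18 of 30 lay below vehicle. Col6a3 (−0.56) and Col8a1 (0.54) were the extremes, both just inside the threshold. The background split moved to 3.68% and 2.33% with centring on single-symbol probe sets, which brought 1 collagen gene, Col8a1, past the threshold. It moved to 1.39% and 4.39% with centring on the genes that passed, where Col6a3 alone crossed it.

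With tofacitinib, 0 of 30 were higher and 0 lower at 1.5-fold, beside 2.66% and 2% of all genes. The median was 0.10, close to the 0.09 over all genes, and the extremes were Col4a5 (0.34) and Col11a2 (−0.50). The median signal of all genes that passed was 0.17 higher on the tofacitinib array than on the vehicle array. Relative to that shift, the collagen median was −0.07, and 3 genes, Col11a2, Col26a1 and Col9a2, were at least 1.5-fold lower, with a background of 0.544% higher and 4.87% lower. Centring on single-symbol probe sets gave a background of 4.56% higher and 1.51% lower and left the collagen counts at 0.

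In 3 pairs, compound arrays were also set against one another, without the vehicle array that all the differences above share. Doxorubicin against Compound C gave 3 higher genes of 30, Col6a3 (0.81), Col11a1 (0.62) and Col10a1 (0.59), and 0 lower, or 10% and 0%, beside 15.4% and 14.9% of all genes. The median was 0.28, against 0.13 over all genes. GSK 690693 against Compound C gave 0 and 0, beside 11.2% and 5.18%, with a median of −0.105. Tofacitinib against GSK 690693 gave 1 higher gene, Col6a3 (0.70), or 3.3%, and 0 lower, beside 2.31% and 1.14%. That last pair was the closest of the arrays over all genes that passed, with a standard deviation of 0.258.

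Promoter sequences show how differently these genes begin. RefSeq (GRCm38.p6) gave the region before the start for 35 of the 44 genes, in 38 windows. Shown are 250 bases upstream of Col4a5, Col10a1 and Col8a1, which were high with doxorubicin, and of Col1a2, which ranged over 0.18 on its brighter probe set. Windows of Col4a1, Col6a2 and Col18a1, also high with doxorubicin, are not shown. They are written 5′ to 3′ on the gene's strand, ending at the base before the start. Capitals mark CCAAT (bound by NF-Y), GGGCGG (the GC box bound by Sp1) and TATAAA (the TATA box), each searched on both strands. None of these motifs contains another.
Col4a5 (chrX:141475169-141475418, plus strand): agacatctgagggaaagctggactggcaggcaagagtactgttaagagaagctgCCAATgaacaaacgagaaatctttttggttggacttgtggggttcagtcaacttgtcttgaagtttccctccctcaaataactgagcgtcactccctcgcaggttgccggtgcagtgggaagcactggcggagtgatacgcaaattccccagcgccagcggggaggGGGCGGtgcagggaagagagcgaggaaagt
Col10a1 (chr10:34389731-34389980, plus strand): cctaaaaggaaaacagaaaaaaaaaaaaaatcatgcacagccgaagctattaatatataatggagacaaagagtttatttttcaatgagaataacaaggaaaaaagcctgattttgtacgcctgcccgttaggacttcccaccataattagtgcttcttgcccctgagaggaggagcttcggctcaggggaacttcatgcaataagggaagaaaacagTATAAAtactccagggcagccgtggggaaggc
Col8a1 (chr16:57754738-57754987, minus strand): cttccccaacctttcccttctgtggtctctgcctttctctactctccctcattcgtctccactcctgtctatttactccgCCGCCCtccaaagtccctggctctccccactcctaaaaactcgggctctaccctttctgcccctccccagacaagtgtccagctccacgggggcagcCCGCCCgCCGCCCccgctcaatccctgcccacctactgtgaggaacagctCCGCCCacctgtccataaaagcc
Col1a2 (chr6:4505368-4505617, plus strand): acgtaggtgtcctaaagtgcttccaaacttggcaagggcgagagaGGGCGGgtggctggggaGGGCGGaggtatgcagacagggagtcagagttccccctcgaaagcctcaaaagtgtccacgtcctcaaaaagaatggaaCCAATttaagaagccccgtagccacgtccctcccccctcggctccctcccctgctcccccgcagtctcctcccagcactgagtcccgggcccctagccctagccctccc

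The Col10a1 window held 1 TATA box and neither of the other motifs, and 41.6% of its bases were G or C. Col8a1 held 4 GC boxes at 60.8% G or C. Col4a5 held 1 CCAAT and 1 GC box at 54.0%, and Col1a2 held 1 CCAAT and 2 GC boxes at 62.0%. Both motifs of Col4a5 were also present before Col1a2. A part of these motifs in the signals was not tested. Over the family, 22 of 38 windows held a GC box, or 57.9%, against 32.7% of 32851 windows of all genes of the same length, and the family's windows were richer in G and C, with a median of 59.0% against 52.4%. CCAAT was in 34.2% of the family's windows and 33.8% of all, and the TATA box in 13.2% and 12.4%. A match of letters is a description and not a binding site.

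The genes that make collagen from its chains were counted in the same way with doxorubicin, against the same background of 11.5% higher and 14.2% lower. Of 16 procollagen folding and modification enzymes that passed the filter, 8 were at least 1.5-fold higher and 0 lower, with a median of 0.53. P4ha2, a prolyl hydroxylase subunit, read 8.70 with vehicle and 9.52 with doxorubicin. P3h2 and P4ha3, also prolyl hydroxylases, lay below vehicle with all 4 compounds, and furthest with GSK 690693, at −1.41 and −1.26. Of 11 genes for propeptide removal and crosslinking, 2 were higher and 0 lower, with a median of 0.37. These were the procollagen C-proteinase enhancers Pcolce2 (0.79) and Pcolce (0.65), while Adamts14, a procollagen N-proteinase, lay at 0.27 with doxorubicin and −0.64 with GSK 690693. Of 13 export genes and their transcription factors 0 were higher and 0 lower with doxorubicin, with a median of −0.13. In that list Creb3l1, a factor that activates collagen and secretory genes, lay below vehicle with all 4 compounds. It read 10.21 with vehicle and 9.09 with GSK 690693, and lay at −0.88 with tofacitinib, −0.64 with Compound C and −0.21 with doxorubicin. Creb3l2 was also below vehicle with all 4, furthest with Compound C (−1.01). Preb lay at −1.22 with Compound C.

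Genes of the matrix around collagen also had positive medians with doxorubicin. Of 23 matrix partners, 7 were higher and 0 lower, with a median of 0.41, led by the fibril-binding proteoglycan Lum (1.80) and the laminin chains Lama2 (1.03) and Lama4 (0.85). Of 14 collagen-cleaving proteases and their inhibitors, 5 were higher and 0 lower, with a median of 0.52. They included the surface protease Fap (1.59), cathepsin K (Ctsk, 0.98) and the gelatinase Mmp2 (0.87). Lum and Fap are also in the fibroblast marker list. Fap passed the filter only through the Compound C (6.02) and doxorubicin (6.5) arrays. Its vehicle value of 4.91 was below the array median of 5.44, so the size of its difference is uncertain. Of 7 collagen receptors 1 was higher, the endocytic receptor Mrc2 (0.59), and 0 lower, with a median of 0.45. The integrin chain Itga11 lay at 0.45 with doxorubicin and −0.67 with GSK 690693, and the receptor kinase Ddr1 at −0.60 with Compound C. Of 11 genes with collagen-like repeats that are not collagen chains, 2 were higher and 0 lower, with a median of 0.41, Cthrc1 (0.86) and Gldn (0.61), while Colec11 lay at −0.36 with doxorubicin and 0.62 with Compound C. Colec11 passed the filter only through the Compound C array, at 5.83, and was below the array median on the others, vehicle included.

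TGF-beta response genes and factors that bind collagen promoters had negative medians with doxorubicin. TGF-beta is the best-known inducer of fibroblast collagen and acts through SMAD proteins. The 13 response genes had a median of −1.05, with 8 at least 1.5-fold lower and 1 higher, and Ccn1 (−3.55), Bhlhe40 (−2.66) and the SMAD inhibitor Smad7 (−2.19) were among the lower ones. The 19 TGF-beta ligands, receptors and SMADs had a median of 0.04, 1 of them higher and 5 lower. Smad7 is in both lists and is among the lower genes of each, so the lists are not separate. Tgfb3 differed by −1.14 with Compound C and Tgfb2 by −1.25 with GSK 690693, against 0.04 and −0.10 with doxorubicin. The 22 promoter-binding factors had a median of −0.435, 0 of them higher and 9 lower. The SRF coactivator Mrtfa (−2.19), Cebpb (−2.12) and the NF-Y subunit Nfya (−1.76) differed most.

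**Figure D4:**
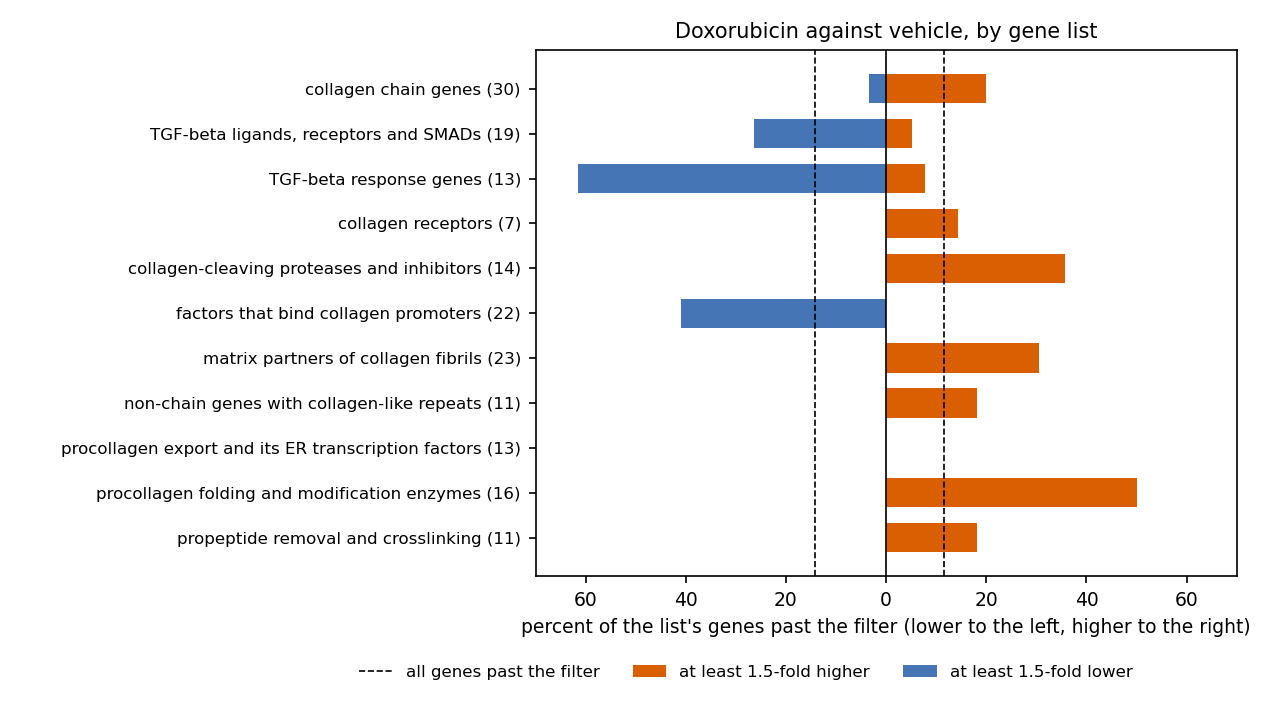
Percent of each list's genes past the filter that were at least 1.5-fold higher (orange, to the right) or lower (blue, to the left) with doxorubicin than with vehicle, with the number of genes in parentheses and dashed lines at 11.5% and 14.2% for all genes. Folding enzymes reach furthest to the right, with 8 of 16, and TGF-beta response genes furthest to the left, with 8 of 13.

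The same lists, of the sizes given above, were counted with the other compounds. With Compound C, where 6.06% of all genes were higher and 9.99% lower, the counts were 1 higher and 2 lower for folding enzymes, 0 and 0 for propeptide removal and crosslinking, 0 and 4 for export, 2 and 0 for matrix partners, 1 and 1 for proteases, 0 and 1 for receptors and 1 and 0 for collagen-like genes. The 1 higher protease gene, Fap, and the 1 higher collagen-like gene, Colec11, passed the filter only through arrays on which they read high. TGF-beta response genes gave 0 higher and 4 lower, TGF-beta ligands, receptors and SMADs 2 and 3, and promoter-binding factors 4 and 5. Export genes and promoter-binding factors thus had at least as many differences with Compound C as with doxorubicin. With GSK 690693 each list had at most 1 higher gene, beside 2.4% of all genes. Lower were 5 of 22 promoter-binding factors, beside 3.21% of all genes. Also lower were 2 of 16 folding enzymes, 2 of 19 TGF-beta ligands, receptors and SMADs and 2 of 23 matrix partners. The remaining lists had at most 1 lower gene each. With tofacitinib each list had at most 1 higher and 2 lower genes, the 2 among 16 folding enzymes, beside 2.66% and 2% of all genes.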

How the data were processed

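Each of 5 samples was hybridised to 1 Affymetrix array from 300 ng of total RNA. RNA was labelled with the GeneChip WT PLUS kit, per the labels' protocols. For every probe set the deposited table holds a log2 signal on each array, which the authors made with Affymetrix Expression Console 1.3.1.187 per the submitters' processing notes. The log base was read from the range of the values, 1.05 to 13.18. Summarisation, background correction, normalization and detection filters were not given in the sources used here. If arrays were forced to 1 distribution, a shift of most genes would be hidden.

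Of 41345 probe sets, only the 23521 with 1 symbol in the platform annotation were used, which leaves out 1814 with more symbols and 16010 that the annotation does not list. A gene was kept if its highest-mean probe set reached the array median of single-symbol probe sets (5.37 to 5.44) on at least 1 array. Differences are log2 signals subtracted between arrays. The number of arrays limits the precision. The counting step was tested on simulated data. Python 3.11.15 and pandas 2.3.3 were used.

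Named collagen genes are those that passed the filter and were at least 1.5-fold from vehicle with any compound, given in full, with the others by range or value. Of each of 10 related lists the 3 largest differences are named, beside 7 marker lists. Members, lists and rules were chosen with earlier results of these data known. Alternatives were median centring, another reference, other filters, averaged probe sets and a 2-fold threshold. Sequences come from RefSeq.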

Additional observations from a re-analysis of the deposited data

How the results depend on the processing

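No paired analysis was possible because each group has 1 array. For the same reason no array could be left out, and values were compared with the standard deviation of the closest pair of arrays, 0.258. The collagen median with doxorubicin ran from 0.115 (no filter, all 44 genes) to 0.29, and stayed positive under every alternative. With GSK 690693 it ran from −0.19 to −0.06, with Compound C from −0.04 to 0.07 and with tofacitinib from −0.07 to 0.17, the last 2 changing sign. The number of genes at least 1.5-fold higher with doxorubicin was between 5 and 7 at that threshold. It was 0 at 2-fold, where 1.33% of all genes were higher and 6.45% lower. The 1 lower gene, Col1a1, became 0 with centring on the genes that passed (added after seeing the data), with the other 4 arrays as reference and at 2-fold. At 2-fold the 3 higher genes of doxorubicin against Compound C and the 1 of tofacitinib against GSK 690693 also became 0. Of all genes, 2.44% and 0.26% were 2-fold higher in those pairs. GSK 690693 gained 1 higher gene with centring on single-symbol probe sets, and 1 lower gene with centring on the genes that passed or with the other 4 arrays as reference. Tofacitinib gained 3 lower genes with centring on the genes that passed. The other 121 values of this kind kept within 1.5 times the count or within 0.258 of the median. This rule could hardly fail for a median, because 0.258 exceeds the size of every collagen median against vehicle before any alternative. Medians that changed sign thus passed it, as did counts of 0 that stayed 0. The 7 named genes kept their direction with doxorubicin under each alternative run for them. These were the 2 centrings, the other reference and averaged probe sets. This was largely fixed in advance, because the genes were named for differing by at least 0.585. The doxorubicin medians used for centring lay only −0.06 or −0.05 from vehicle, and each of the 7 has 1 probe set, so averaging changed nothing.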
